A study of Procambarus virginalis with 3 samples.

Results

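The accessible regions described here are short peaks that stood apart from their neighbours on peak-rich scaffolds of the marbled crayfish genome (*Procambarus virginalis*), as mapped by ATAC-seq in hemocytes. They were chosen by 3 measured values of the peak list. A peak had to be under 1000 bp long, lie on a scaffold with 10 or more peaks of any length, and have its nearest peak on that scaffold over 2000 and at most 20000 bp away, counted between peak borders. This selected 7138 of 89155 peaks (8.01%) on 1104 of 30666 scaffolds, and they are called dispersed peaks below. The libraries came from 3 wild-caught animals and form 1 group, hemocytes, with no control library and no second condition. The age of the animals and any treatment were not given in the sources used here. The 3 libraries were pooled by the authors, so the list holds 1 value per peak, and the spread between animals was not analysed here. All spreads are over peaks or scaffolds, and all intervals cover counting error only.

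Hemocytes are the circulating blood cells of crustaceans and act in clotting, wound repair and immune defence. In ATAC-seq, the Tn5 transposase cuts and tags DNA where it is free of nucleosomes, so that fragments pile up over accessible DNA. In animal genomes, short accessible sites commonly mark promoters, enhancers and other places where regulatory proteins bind, and a site that lies alone can belong to any of these. Gene models and the genome sequence were not used here, and it is therefore not stated whether a peak lies in an exon, an intron or a promoter. No hemocyte marker could be examined for the same reason.

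The 1115 scaffolds with 10 or more peaks held 15472 peaks, and dispersed peaks made up 46.1% of them. The remainder consisted of 6645 short peaks with a neighbour at most 2000 bp away, 858 short peaks whose nearest peak was over 20000 bp away, and 831 peaks of 1000 bp or more. Only 11 of the scaffolds had no dispersed peak, and 47 had a single dispersed peak. The median scaffold with any dispersed peak carried 6 of them among 12 peaks (interquartile range over scaffolds 4 to 8 and 11 to 16), and 23 scaffolds carried 15 or more. Dispersed peaks were thus spread thinly over nearly all peak-rich scaffolds.

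The depth behind these values was low for most dispersed peaks. Under the assumption that the merged list comes from a single call in which 1 is added to pileup and background and a Poisson test is applied, the lowest fold enrichment in the list corresponded to a pileup of 11 fragments where 3.88 were due to background, and each further fragment added 0.205 to the fold enrichment. With the same background taken for every peak, the median dispersed peak then corresponded to a pileup of 19 fragments. For 19 fragments at a single position, the exact 95% Poisson interval is 11.4 to 29.7, which translates into fold values of 2.55 to 6.28. Differences of this size at a single position cannot be resolved at this depth. The listed value is averaged along the peak and can draw on more fragments than its height. The error of that average was not measured, so the interval is only a guide to depth. The strongest dispersed peak corresponded to a pileup of 4625 fragments (interval at a single position 4493 to 4760).

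Spacing was first examined. Because the selection bounded the distance to the nearest peak, that distance is a description of the rule, and its median was 5619 bp (interquartile range 3442 to 9125 bp). Distances were not grouped around a preferred value within the permitted window. The nearest peak was over 2000 to 3000 bp away for 1282 dispersed peaks, over 3000 to 5000 bp for 1859, over 5000 to 10000 bp for 2501 and over 10000 bp for 1496, so that the number per kb fell steadily with distance. The farther neighbour was not bounded. For the 5982 dispersed peaks with a peak on both sides, it lay at a median of 14774 bp (interquartile range 8482 to 24457 bp, range 2100 to 147430 bp), and for 66.1% of them (exact binomial 95% interval 64.9 to 67.3%) it was also within 20000 bp. A further 589 dispersed peaks were the first and 567 the last on their scaffold and had a neighbour on 1 side only.

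Spacing was uneven rather than regular. The farther neighbour was 2.32 times as far away as the nearer neighbour in the median (interquartile range 1.49 to 4.18). The ratio was under 1.5 for 25.5% of the dispersed peaks with 2 neighbours and over 5 for 19.3%. By definition it cannot be under 1, and the selection bounded only the nearer distance. It was not compared with the ratio for peaks placed at random. The nearest peak was itself dispersed for 5151 members (72.2%), was a short peak in a close pair or group for 1671 (23.4%), and was 1000 bp or longer for 316 (4.43%). Dispersed peaks made up 46.1% of all peaks on peak-rich scaffolds. The gap to the nearest peak counts for both peaks, so the selection itself favours a nearest peak that is also dispersed.

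**Figure D1:**
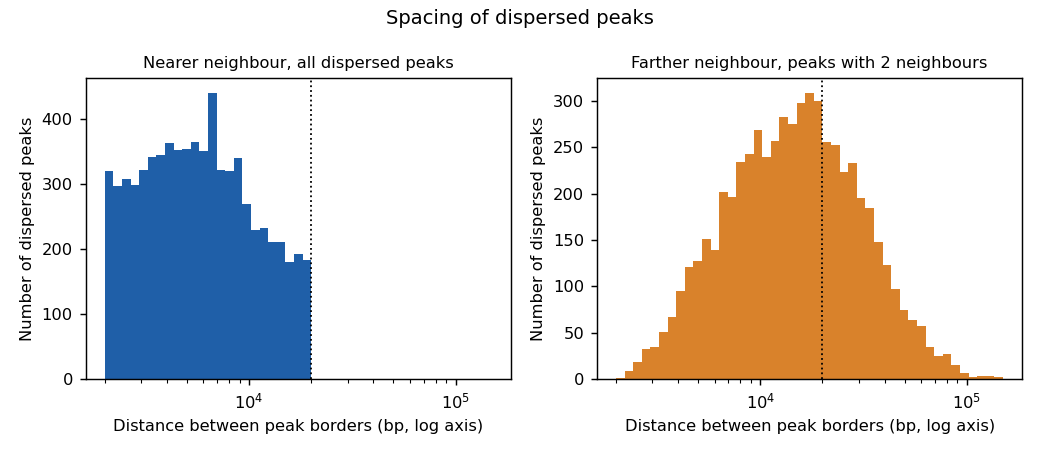
Number of dispersed peaks by distance to the nearer neighbour (left, all 7138 dispersed peaks) and to the farther neighbour (right, the 5982 with a peak on both sides). Distances are in bp between peak borders on log axes, and dotted lines mark 20000 bp. The left histogram ends at the limits of the selection, whereas the right continues to 147430 bp around a median of 14774 bp.

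Runs of dispersed peaks were then counted. A gap of over 2000 bp counts for the peaks on both of its sides, so the selection itself favours runs. Dispersed peaks formed 2698 uninterrupted runs along scaffolds, of which 998 contained a single peak, 404 contained 5 or more and 35 contained 10 or more. Runs of 5 or more held 37.4% of all dispersed peaks. The longest run, singled out after its values were seen, comprised 16 dispersed peaks over 135481 bp of scaffold42753, from position 120 to 135600. Their fold enrichment was between 2.63 and 40.1 with a median of 4.12. Positions are given throughout on the scaffolds of the draft assembly, counting from 1.

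Density was then described as the number of peaks of any length per 100 kb between the first and the last peak of a scaffold. The median over the 1104 scaffolds was 11.5 peaks per 100 kb (interquartile range 7.96 to 16.0, range 2.53 to 71.8) over a median span of 115 kb, of which 5.11 per 100 kb were dispersed peaks (interquartile range 3.46 to 7.08). The share of dispersed peaks was lower on denser scaffolds (Spearman's coefficient of -0.41 across 1115 scaffolds, a description only), and the limit on close neighbours in the selection favours this direction. Among the 766 scaffolds with 5 or more dispersed peaks, scaffold44989 was the densest, with 21 peaks in 71.7 kb (29.3 per 100 kb, 8 of them dispersed). The sparsest was scaffold11924, with 17 peaks in 670.7 kb (2.53 per 100 kb, 10 of them dispersed). The dispersed peaks of these scaffolds had a median fold enrichment of 4.10 and 4.58, and the density differed by more than 10 times. This pair of extremes does not describe the relation over all scaffolds, which is given below.

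Dispersed peaks resembled the whole list in strength. Their median fold enrichment was 4.10 (interquartile range 3.11 to 6.86, 95% order-statistic interval of the median 4.05 to 4.17), against 4.18 (3.15 to 7.07, interval 4.17 to 4.20) for all 89155 peaks. A fold enrichment of at least 10 was found for 1093 dispersed peaks (15.3%, exact binomial 95% interval 14.5 to 16.2%), against 15.9% of all peaks. A fold enrichment of at least 50 was found for 81 (1.13%, interval 0.902 to 1.41%), against 1.17% of all peaks. These shares lay close to those of the list. At the lower end, 3416 dispersed peaks (47.9%) had a fold enrichment under 4, against 46.7% of all peaks. The lowest value of the list, 2.46, was held by 55 dispersed peaks within a tolerance of 2e-05. How many of all peaks shared it was not counted. The median dispersed peak had a −log10 q of 6.36.

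The closest counterparts of these peaks were peaks of the same length and nearest distance on scaffolds with 2 to 9 peaks. The dispersed peaks on peak-rich scaffolds had a median fold enrichment of 4.10 and a median length of 205 bp (7138 peaks), and the counterparts had 4.17 and 190 bp (29745 peaks). The interquartile ranges of length were 116 to 361 bp and 112 to 340 bp. On the peak-rich scaffolds themselves, the median fold enrichment was 4.10 for dispersed peaks, 3.75 for short peaks with a neighbour at most 2000 bp away (interquartile range 2.97 to 5.90), 4.16 for short peaks over 20000 bp from any other (3.08 to 6.76) and 9.28 for long peaks of at least 1000 bp (4.57 to 21.1). No test was applied to these differences, because length, spacing and strength come from the same merged peak list, and all of these ranges overlapped.

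Within the permitted window, distance made little difference. The median fold enrichment was 4.08 for dispersed peaks with a neighbour at over 2000 to 3000 bp, 4.16 at over 3000 to 5000 bp, 4.11 at over 5000 to 10000 bp and 4.02 at over 10000 to 20000 bp, and Spearman's coefficient between distance and fold enrichment was -0.0041 (7138 peaks). The order-statistic intervals of these 4 medians overlapped. On the same scaffolds, short peaks closer to a neighbour had lower medians, of 3.90 at over 1000 to 2000 bp, 3.73 at over 500 to 1000 bp and 3.62 at 500 bp or less. The size of the neighbour also mattered little. Dispersed peaks next to a peak of 1000 bp or more had a median fold enrichment of 3.93 (interval 3.70 to 4.21, 316 peaks), while those neighbouring long peaks had a median of 11.9.

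Longer dispersed peaks had higher fold enrichment. Both values come from the peak caller, and the part of the calling itself in this relation was not tested. The median fold enrichment was 3.30 for dispersed peaks under 100 bp (1346 peaks, interquartile range 2.85 to 4.17), 3.71 for 100 to under 200 bp (2133 peaks), 4.66 for 200 to under 300 bp (1313 peaks), 5.41 for 300 to under 500 bp (1400 peaks) and 6.35 for 500 to under 1000 bp (946 peaks, 4.01 to 12.1). Spearman's coefficient was 0.38 across the 7138 peaks. Adjacent length classes nevertheless overlapped widely.

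**Figure D2:**
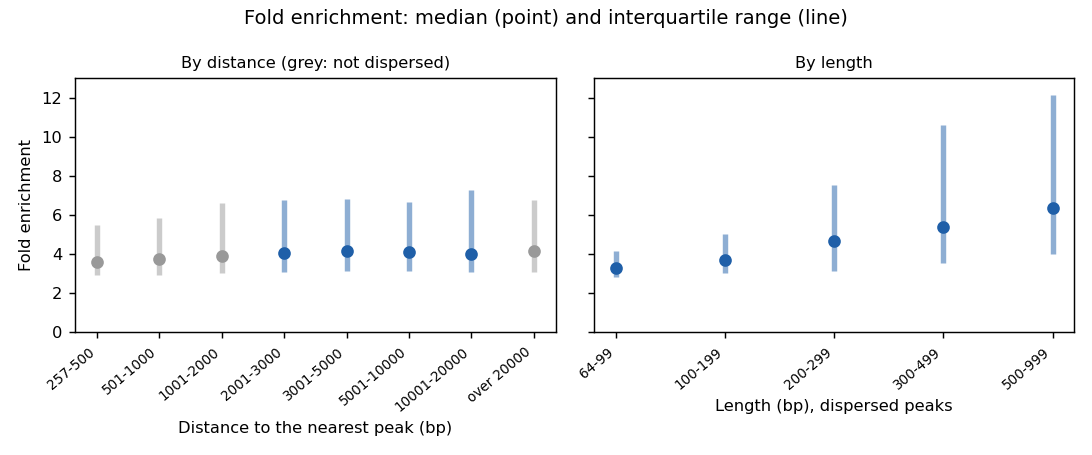
Median fold enrichment (points) with interquartile range (lines) by distance to the nearest peak (left) and by length of the dispersed peaks (right), with distances and lengths in bp. Blue stands for dispersed peaks and grey for other short peaks on the same scaffolds. The blue medians on the left lie between 4.02 and 4.16, whereas those on the right increase with length to 6.35.

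At the limits of the selection, values inside and outside were close. Dispersed peaks of 900 to under 1000 bp had a median fold enrichment of 7.86 (83 peaks), against 9.47 for those of 1000 to under 1100 bp that met the other limits (60 peaks). With the nearest peak at over 2000 to 2200 bp the median was 4.02 (320 peaks), against 4.16 at over 1800 to 2000 bp (425 peaks). With the nearest peak at over 19000 to 20000 bp it was 4.29 (96 peaks), against 4.16 at over 20000 to 21000 bp (86 peaks). On scaffolds with exactly 10 peaks it was 4.18 (1171 peaks), against 4.09 on scaffolds with 9 (1618 peaks).

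Signal was concentrated in few dispersed peaks. When fold enrichment was multiplied by length and summed, the strongest 1% by fold enrichment (72 peaks) held 19.7% of the sum over dispersed peaks and the strongest 10% held 52.8%. The same shares were not calculated for other peaks. As a group, dispersed peaks made up 46.1% of the peaks on peak-rich scaffolds but 33.4% of the covered length and 27.7% of the summed signal there. The last share was 26.7% when the strongest dispersed peak was left out. Because dispersed peaks had to be under 1000 bp long, the selection itself lowers their shares of length and of summed signal. The strongest peak of a scaffold was a dispersed peak on 534 of the 1115 scaffolds (47.9%, exact binomial 95% interval 44.9 to 50.9%), close to their 46.1% share of peaks. It was a peak of 1000 bp or more on 198 (17.8%).

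The strongest dispersed peak covered positions 115836 to 116753 of scaffold12147 and had a fold enrichment of 947.2 over 918 bp. Its neighbours lay 11111 and 9282 bp away, and the nearer had a fold enrichment of 4.44. None of the other 11 dispersed peaks on this scaffold exceeded 12.0, and their lowest value was 2.74. All 5 peaks named here were chosen as the strongest, so a contrast with the other dispersed peaks of their scaffold is favoured by the choice. Where a second strongest value is given below, it covers dispersed peaks only. The dispersed peak at 56336 to 56802 of scaffold24901 had a fold enrichment of 188.02, against 6.90 for the second strongest of 6 dispersed peaks there. At 168101 to 168634 of scaffold2137 the value was 187.8, against 15.3 for the second of 10. At 46657 to 47533 of scaffold31229 it was 163.7, against 6.64 for the second of 7. The remaining peak of these 5, at 19366 to 19690 of scaffold140272 (fold enrichment 168.3), was the last peak of a scaffold with 10 peaks in 13.9 kb and the only dispersed peak on it, and its nearest peak had a fold enrichment of 3.02. Copy number under these peaks was not known, and its part in the high values was not tested.

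At the other end, 2 of the 55 dispersed peaks tied at the lowest fold enrichment of 2.46 are named, the first by scaffold name among those with the lowest listed digits. They lay at 200547 to 200683 of scaffold1806 and at 52427 to 52659 of scaffold22635, and their nearest peaks had fold enrichments of 6.41 and 2.95.

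The variation of fold enrichment between and within scaffolds was then separated. For this purpose, the variance of log2 fold enrichment was divided into a part between scaffolds and a part among the dispersed peaks of 1 scaffold, over the 1057 scaffolds with 2 or more (7091 peaks). The SD within scaffolds was 0.98 on the log2 scale, whereas the SD between scaffolds was 0.050. The part between scaffolds amounted to 0.257% of the variance (95% interval -1.07 to 1.72%). Estimates below 0 arise where scaffold means differ less than the spread within scaffolds alone would give. The interval assumes normally distributed values, which the long upper tail violates. With ranks turned into normal scores, an alternative added after the data had been examined, the share was 1.54% (interval 0.133 to 3.09%). Knowing the scaffold of a dispersed peak therefore told little about its strength.

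The same share was calculated for other peaks. It was 0.257% for dispersed peaks and 6.21% (interval 4.89 to 7.54%) for the peaks of the same length and distance on scaffolds with 2 to 9 peaks. On the peak-rich scaffolds, it was 5.39% (3.67 to 7.27%) for short peaks with a neighbour at most 2000 bp away, 29.5% (19.6 to 39.4%) for those of at least 1000 bp and 5.82% (-3.15 to 15.5%) for short peaks over 20000 bp from any other. The whole list gave 4.49%. When peaks of the same length and distance were grouped by the number of peaks on their scaffold, the share was 7.15% for 2 to 4 peaks, 4.42% for 5 to 9, -0.565% for 10 to 14, 1.23% for 15 to 19 and 1.62% for 20 or more. The intervals of the last 3 groups all included 0. The difference between dispersed peaks and the others was not tested, because no replicate values were used and all values come from the same merged list. Scaffolds with fewer peaks also contribute fewer peaks each, which is reflected in the intervals.

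**Figure D3:**
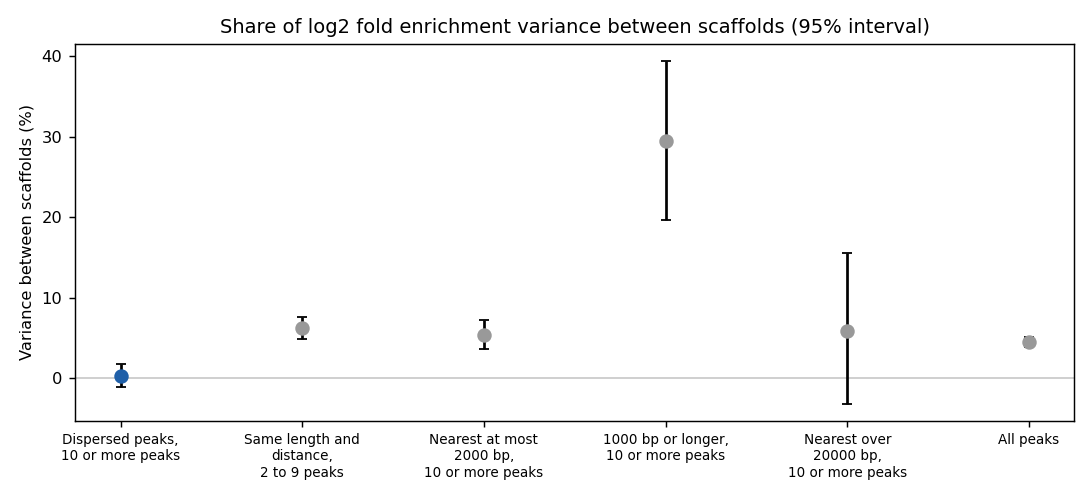
Share of the variance of log2 fold enrichment that lies between scaffolds, in percent, for dispersed peaks (blue) and for 5 other sets of peaks (grey). Points are estimates and bars are 95% intervals under a normal distribution. The estimate for dispersed peaks is 0.257%, and that for peaks of 1000 bp or more is 29.5%.

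The spread within individual scaffolds was then described. On the 766 scaffolds with 5 or more dispersed peaks, the strongest dispersed peak had 5.12 times the fold enrichment of the weakest in the median (range 1.25 to 345.7). The median of the weakest was 2.70 and that of the strongest was 14.3. A dispersed peak under a fold enrichment of 3 and another of at least 10 occurred together on 429 of these scaffolds (56.0%, exact binomial 95% interval 52.4 to 59.6%). By comparison, 2 scaffolds had all of their dispersed peaks under 4, and 12 had all of them at 4 or more. These counts and ratios were not calculated for other peaks. Of all peaks, 46.7% were under 4 and 15.9% reached 10, and a wider range becomes more likely with more peaks per scaffold. The share of all peaks under 3 was not calculated, but their lower quartile was 3.15. The 46.7% is therefore not the counterpart of the limit of 3 used in the count. The weakest peaks also lay near the lowest value of the list, 2.46. The medians per scaffold had an interquartile range over scaffolds of 3.56 to 4.97.

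**Figure D4:**
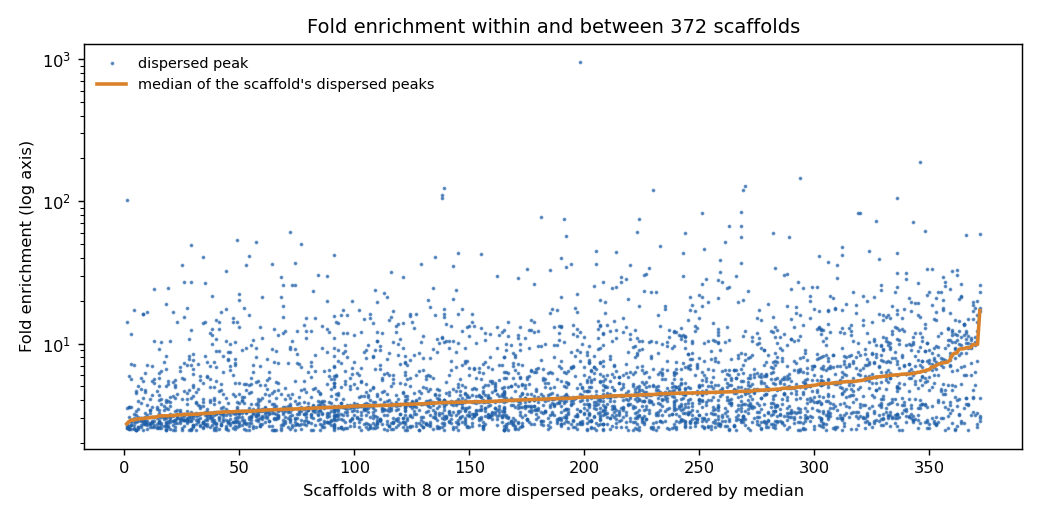
Fold enrichment (log axis) of each dispersed peak on the 372 scaffolds with 8 or more, which are ordered by the median of their dispersed peaks (orange line). Scaffold medians extend from 2.73 to 17.1, and weak and strong dispersed peaks lie side by side on scaffolds along the whole order.

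Adjacent dispersed peaks also differed nearly as much as any others. For the 4440 pairs of dispersed peaks that followed each other on a scaffold, the mean absolute difference was 0.98 on the log2 scale, against 1.01 over all possible pairs of dispersed peaks, and 36.4% of adjacent pairs differed by more than 2-fold. Spearman's coefficient between neighbours was 0.058 over all pairs, 0.083 for gaps of up to 5000 bp (1276 pairs), 0.053 for 5000 to 10000 bp (1400 pairs), 0.053 for 10000 to 20000 bp (1305 pairs) and 0.018 beyond 20000 bp (459 pairs). These coefficients are small, and neither an interval nor a test was computed for them, so they are a description only. After each scaffold's mean was subtracted, the coefficient was -0.077, a direction that the subtraction itself favours. Adjacent short peaks at most 2000 bp apart on peak-rich scaffolds had a mean difference of 0.83 and a coefficient of 0.14 (3709 pairs), and the corresponding pairs on scaffolds with 2 to 9 peaks had 0.98 and 0.051 (15549 pairs).

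Density and strength were compared across scaffolds as well. Over the 766 scaffolds with 5 or more dispersed peaks, Spearman's coefficient between peaks per 100 kb and the median fold enrichment of dispersed peaks was 0.12, and it was 0.15 over the 372 scaffolds with 8 or more. The points share the same merged peak list, so this is a description. When these scaffolds were divided by density into 4 classes, from sparse to dense, the median density was 6.20, 8.84, 11.9 and 16.6 peaks per 100 kb. The median fold enrichment of the dispersed peaks in the same order was 3.98 (95% order-statistic interval 3.84 to 4.07), 4.03 (3.89 to 4.19), 4.27 (4.13 to 4.41) and 4.20 (4.06 to 4.34). The intervals of the sparsest and the third class did not overlap.

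The scaffold with the most dispersed peaks was scaffold3259, where 32 of 41 peaks between positions 2959 and 496030 were dispersed (8.32 peaks per 100 kb). Of these 32, 19 had a fold enrichment under 4 and 3 reached 10, with a median of 3.57. The run began with peaks starting at positions 2959, 21220, 30260 and 35479, with fold enrichments of 2.93, 3.60, 6.89 and 5.31. After a peak over 20000 bp from any other, dispersed peaks followed at 103050 (5.27), 106141 (9.34), 114308 (2.98), 120416 (2.67), 140976 (2.64), 152579 (6.95), 158119 (5.95), 161521 (3.57) and 168915 (5.02), where the value in parentheses is the fold enrichment. In this stretch, peaks under 4 lay among stronger ones, and the order of the values was not tested.

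The strongest dispersed peak of scaffold3259 lay at 184896 to 185490 (41.8, 595 bp), 3200 bp behind a peak of 1123 bp with a fold enrichment of 7.96. The next dispersed peaks, starting at 216845 (3.62), 222905 (3.45), 271772 (3.32), 282949 (2.46) and 286165 (4.97), were all weaker than 5. The strongest site of the scaffold thus stood among weak ones.

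The distal part of scaffold3259 contained dispersed peaks at 318696 (2.99), 329299 (8.19), 335130 (3.13), 371157 (5.65), 387767 (10.9), 411864 (15.7) and 417992 (3.18). It ended with peaks at 442188 (2.58), 453782 (3.47), 461973 (3.34), 471548 (3.57), 486664 (2.71) and 495945 (2.55). The last 7 dispersed peaks were thus all under 4.

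The scaffolds next in number were scaffold1806 and scaffold3163. On scaffold1806, 24 of 38 peaks were dispersed, with a median fold enrichment of 3.98 and a range of 2.46 to 12.4. On scaffold3163, 23 of 41 peaks were dispersed, with a median of 4.24 and a range of 2.47 to 27.3. The densities were 10.5 and 9.67 peaks per 100 kb, close to the median of 11.5 over all scaffolds with dispersed peaks.

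The highest median among scaffolds with 8 or more dispersed peaks was found on scaffold5633, with 17.1 over 9 dispersed peaks between positions 11431 and 89736. In order of position, their fold enrichments were 59.3 at 11431, 3.12 at 20891, 4.16 at 43810, 25.7 at 47885, 17.1 at 61344, 23.0 at 66382, 17.8 at 76166, 2.84 at 84670 and 3.02 at 88991. Of the 9, 5 reached 10 and 3 were under 4, so that even this scaffold held weak peaks beside strong ones. The second highest median, 9.87, belonged to scaffold44696, where 4 of 8 dispersed peaks reached 10 and 3 were under 4. Its strong peaks were consecutive among its dispersed peaks and lay in pairs. The first pair, at 53976 (14.3) and 58606 (16.0), had 4203 bp between its peaks. The second, at 76516 (12.2) and 80643 (19.9), had 3614 bp.

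**Figure D5:**
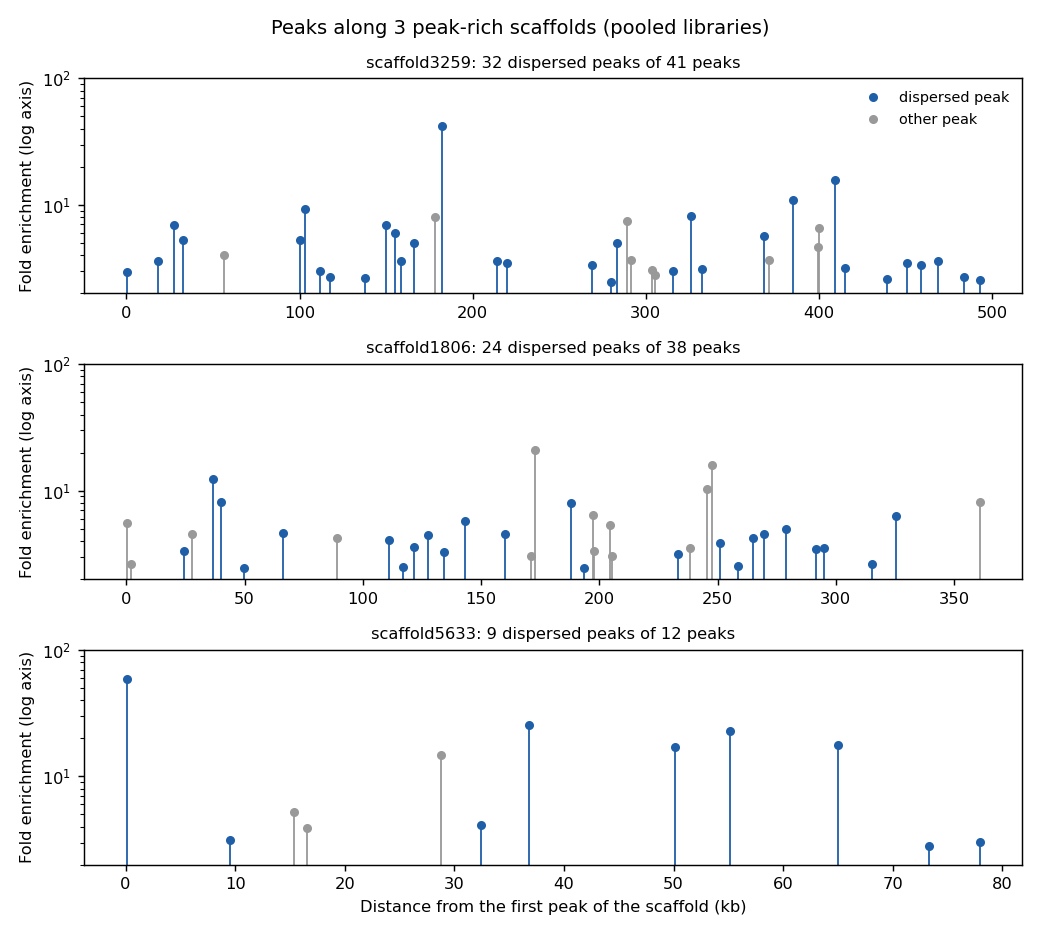
Fold enrichment (log axis) of each peak along the 2 scaffolds with the most dispersed peaks and the scaffold with the highest median, by distance in kb from the first peak of the scaffold. Blue stands for dispersed peaks and grey for other peaks. On scaffold3259, the dispersed peak of 41.8 stands among weaker peaks. On scaffold5633, dispersed peaks of 25.7, 17.1, 23.0 and 17.8 follow each other.

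The lowest median, 2.73, was found on scaffold14935, where 6 of 8 dispersed peaks were under 4. The same scaffold carried a dispersed peak of 102.9 at 39784 to 40755 and another of 14.1 at 43640 to 44142, with 2884 bp between them. The second lowest, 2.84, was that of scaffold1420, where 7 of 8 dispersed peaks were under 4 and the strongest reached 5.95. The widest ranges were those of scaffold12147 (2.74 to 947.2) and scaffold2137 (2.77 to 187.8), both of which rested on the single strong peaks given above.

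Finally, positions relative to the scaffold start were examined. The first kb of scaffolds contained the starts of 156 dispersed peaks, against 32.8 per kb between 1 and 5 kb, 40.4 per kb between 5 and 10 kb, 41.8 per kb between 10 and 20 kb and 50.6 per kb between 20 and 50 kb. All peaks were not counted by position, so this is not shown to be particular to dispersed peaks. The first peak of a scaffold has a neighbour on 1 side only, so the selection itself favours it. The median fold enrichment was 4.45 in the first kb, 4.44 between 1 and 5 kb and 4.12 between 20 and 50 kb. The first kb held 2.19% of all dispersed peaks, so the values of these peaks had little weight in the medians above.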

How the data were processed

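The deposited peak list of 3 pooled hemocyte libraries (about 500 µL of hemolymph and 50000 cells per animal, 20 min of transposition) was analysed. According to the study's methods, the authors trimmed reads with Trim Galore, aligned them with Bowtie2, removed duplicates with samtools and called broad peaks with MACS2. Whether the merged list comes from a single call on pooled reads, the caller's settings, the assembly version and any shift of insertion sites were not given in these sources, and a shift would move borders by a few bases. The authors deposited a fold enrichment per peak (a linear ratio of pileup to background, averaged along the peak), the −log10 of its p-value and q-value, and a display score, which was not used. Read totals per library were not analysed here.

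Peaks were sorted by scaffold and start, distances were taken from end to next start, and starts are given counting from 1. Medians have order-statistic intervals, shares exact (Clopper-Pearson) intervals, at 95%, and fragment numbers exact Poisson intervals. PCR fragments are not independent molecules, so these cover counting error only. Variance was divided by one-way variance components. No p-value was computed, since there is 1 group with 1 pooled value per peak and the members were selected on values of the same list. Calculations used Python 3.11.15, pandas 2.3.3 and scipy 1.17.1, and the selection and the variance components were tested on simulated data. Named peaks are the 5 strongest members and, of the members with the lowest listed fold enrichment, the first 2 by scaffold name and start. Named scaffolds are the 3 with most members, those with the 2 highest and 2 lowest medians and 2 widest ranges among scaffolds with 8 or more members, and the densest and sparsest with 5 or more. The members, limits and rules were chosen with earlier results of these data known. The alternatives tried were stricter calling thresholds, joining of close peaks, other limits of the selection, interior peaks only and omission of scaffold starts.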

Additional observations from a re-analysis of the deposited data

How the results depend on the processing

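Stricter calling thresholds and a higher minimum of peaks per scaffold left the fewest dispersed peaks. For a −log10 q of at least 5, the 7138 dispersed peaks fell to 1696 (1370 of them selected in both), with a median fold enrichment of 6.17, 7.85 peaks per 100 kb, a median length of 266 bp and a median nearest distance of 6275 bp. Keeping only fold enrichments of 4 or more gave 1225 peaks (974 selected in both), a median fold enrichment of 6.76, 7.53 peaks per 100 kb, 272 bp and 6370 bp, and a share of variance between scaffolds of -2.26%. Joining peaks less than 500 bp apart gave 10.3 peaks per 100 kb and a median length of 212 bp. A length limit of 500 bp gave a median fold enrichment of 3.93 and a length of 177 bp. Requiring 20 or more peaks per scaffold gave 1200 dispersed peaks, 10.7 per 100 kb and 217 bp, and a nearest peak over 5000 bp away gave 3997 peaks, 199 bp and 8549 bp. With interior peaks only, the nearest distance was 5295 bp. The cause of these shifts was not tested, except that filters on −log10 q, fold enrichment, length or distance shift the filtered value itself by construction. The share of variance between scaffolds stayed between -2.26 and 1.62% under these 8 settings. Under 3 added after the data had been examined, it was 1.54% for normal scores of the ranks, 0.985% without the strongest 1% and 0.726% for scaffolds with 8 or more dispersed peaks. For the same peaks on scaffolds with 2 to 9 peaks, the first 2 of these gave 4.63% and 5.25%. Leaving out single libraries and the sequence content of named peaks were not run, because values per library and a genome were not used here. No paired analysis was possible because there is a single group.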
